A study of Mus musculus with 2 samples.

Results

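Retinoic acid is the active form of vitamin A, and its level in a cell is set by enzymes that make it, enzymes that destroy it and proteins that store and carry its precursors. Transcripts of 9 mouse genes of this system were compared between the livers of Pgrmc1 KO and WT mice. The genes were Cyp26a1 and Cyp26b1 (retinoic acid hydroxylases), Lrat (retinol esterification), Rdh10 (retinol oxidation), Dhrs3 and Rdh11 (retinal reduction), Rbp4 (retinol transport in plasma), and Crabp1 and Crabp2 (retinoic acid binding in the cytoplasm). They were chosen by gene symbol, with the KO and WT values of these same libraries already known, from 24054 genes in the deposited table, and all 9 were found there. The values below therefore describe the genes and test nothing.

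Both groups were male mice of 8 to 12 weeks, with the strain labelled C57BL/6. The Pgrmc1 KO mice (Pgrmc1 -/Y) lacked the floxed exons of the X-linked gene in the whole body. The floxed allele was made in C57BL/6N and had been recombined by Sox2-Cre. That Cre acts in the early embryo and came from the line B6.Cg-Tg(Sox2-cre)1Amc/J. The WT mice carried the intact gene. Equal masses of liver RNA (2.5 μg per mouse) from 5 mice of a genotype were mixed before library preparation, so that each genotype was sequenced as 1 library. Mice were thus not measured one by one, and every difference below lacks a replicate check. Levels are given as TPM, the share of a gene in the transcript pool per unit of transcript length. The estimated number of reads was 22086688 in KO and 29710410 in WT over the genes of the second deposited table. Pgrmc1 stood at 0.68 TPM in KO against 949.49 TPM in WT, as the labels imply. The hepatocyte marker Alb (serum albumin) was at 47242 TPM in KO against 49729 TPM in WT, which fits the labelled tissue.

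The liver is the main vitamin A store of the body. Hepatocytes take up dietary retinoid and secrete retinol bound to Rbp4, while stellate cells hold most of the reserve as retinyl esters, which Lrat makes. Retinol is oxidized to retinal by enzymes such as Rdh10 and then to retinoic acid by aldehyde dehydrogenases, whereas Dhrs3 and Rdh11 return retinal to retinol. The Cyp26 enzymes are heme-containing cytochromes P450 of the endoplasmic reticulum that hydroxylate retinoic acid and so mark it for removal. Cyp26a1 is a textbook target gene of retinoic acid itself: receptors of the RAR and RXR families bind paired hexamers in its promoter, so that the ligand induces its own breakdown.

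The sequences that bear on this are shown first. A search of RefSeq promoters of GRCm38.p6 (250 bases before to 50 after the start site used for each promoter) looked on both strands for 2 hexamers in the same orientation with a spacer of 5 bases. Each hexamer was the canonical AGGTCA or its variant AGTTCA, and GGGTCA was allowed as well as GGTTCA. Promoters were held for 7 of the 9 genes, and only that of Cyp26a1 contained the element. Of 32851 promoters, 32 contained it (0.0974%). Among the 46 other retinoid genes with a promoter, Rarb, which encodes a retinoic acid receptor, was the only match. Both elements are printed 5′ to 3′ in the orientation of the hexamers, which are in capitals, with the spacer and 5 flanking bases on each side in lower case.
Cyp26a1: aaattAGTTCAcccaaAGTTCAtcttt
Rarb: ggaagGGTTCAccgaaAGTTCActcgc
The Cyp26a1 element, on the strand opposite to the gene, lies at chr19:37697776-37697792, and its nearest base is 16 bases before the start site of this promoter, 37697808. RefSeq begins the span of the gene farther upstream, at 37697738, so that the element lies 38 bases inside the span. The Rarb element lies on the strand of that gene at chr14:16575513-16575529, with its nearest base 37 bases before the start site of its promoter, 16575476, and is likewise inside the span of the gene, which runs from 16430839 to 17082331. The same hexamers with a spacer of 2 bases were in 0.268% of promoters and with a spacer of 1 base in 0.222%. Neither search matched Rarb or any of the 7 genes. Among the 46 other retinoid genes, the spacer of 1 base matched only Bco1, a gene of carotenoid cleavage, and the spacer of 2 bases matched none. A match describes the letters only, and the absence of one in Cyp26b1, Dhrs3 or Lrat says nothing about sites outside this window.

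Cyp26a1 (Entrez gene 13082; chromosome 19, 37697738 to 37701536 of GRCm38, plus strand) was at 20.13 TPM in the KO library and 7.38 TPM in the WT library. The log2 change, computed here as log2((KO TPM + 1)/(WT TPM + 1)), was 1.33, or 2.52-fold. This was the 29th highest of the 11623 genes whose mean over both libraries was 1 TPM or more, called expressed genes below. It rests on 456 estimated reads in KO and 223 in WT, both whole numbers within 0.02 of a read. The second deposited table holds a depth-scaled read number per library, called the authors' mean below, and the log2 ratio of these means was 1.47 with a 95% counting interval of 1.23 to 1.70. Every interval given beside a log2 change below is that of the ratio of the authors' means, and it covers the counting of reads and not the differences between mice. The gene shares no 100-base stretch of its transcripts with another gene, so reads cannot have been divided between copies of that length.

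Cyp26b1 (Entrez gene 232174; chromosome 6, 84571414 to 84593908, minus strand) encodes the second retinoic acid hydroxylase. Its level was 10.47 TPM in KO against 6.62 TPM in WT, a log2 change of 0.59 (1.51-fold), the 105th highest. With 668 and 566 estimated reads, the counting interval of the ratio of means ran from 0.51 to 0.84 and did not meet that of Cyp26a1. The third gene of the family, Cyp26c1, stands beside Cyp26a1 on chromosome 19 and was close to absent, with 2 estimated reads in KO and 1 in WT (0.15 and 0.08 TPM).

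Together the Cyp26 transcripts summed to 30.75 TPM in KO beside 14.08 TPM in WT, a ratio of 2.18. Of the difference of 16.67 TPM, 76.5% came from Cyp26a1. The makeup of the sum differed between the libraries. In WT, Cyp26a1 made up 52.4% and Cyp26b1 47.0%, and their levels had overlapping counting intervals (6.44 to 8.41 TPM for Cyp26a1 and 6.09 to 7.19 TPM for Cyp26b1). In KO, Cyp26a1 made up 65.5% of the sum and was 1.92 times as high as Cyp26b1, with intervals of 18.3 to 22.1 TPM and 9.69 to 11.3 TPM that lay apart. Both remained minor P450 transcripts: among 94 P450 genes in the table, Cyp26a1 ranked 39th by TPM in KO and 49th in WT, and Cyp26b1 49th and 50th.

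**Figure D1:**
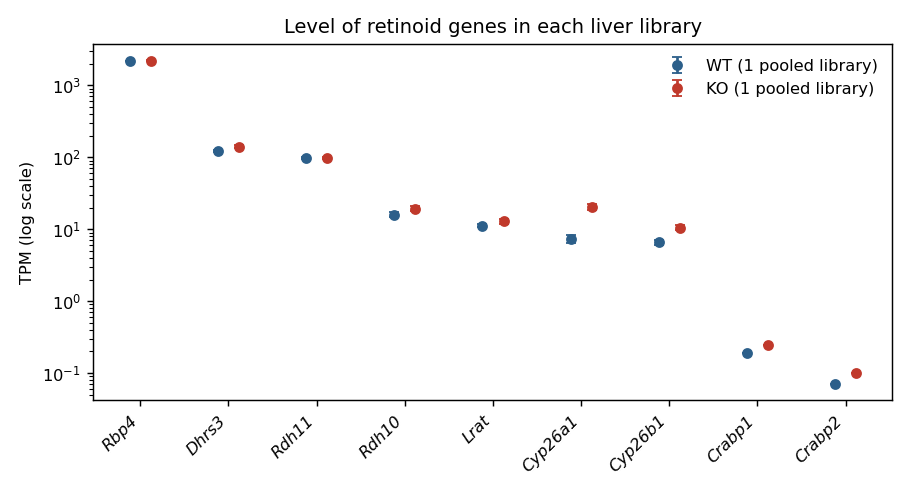
Level of each of the 9 genes in the WT (blue) and the KO (red) library, in TPM on a log scale, 1 pooled library per genotype. Bars are 95% counting intervals, drawn for the 7 genes with estimated reads. Cyp26a1 shows the widest gap, 7.38 TPM for WT beside 20.13 TPM for KO, while the pairs for Rbp4 and Rdh11 nearly coincide.

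A fold rule after the thresholds of the study, at least 1.4-fold or at most 0.6-fold, was applied to all expressed genes. The fold was that of TPM + 1 and not the study's own, and the study's second criterion, a probability, was left out. The rule was passed upward by 1.21% of expressed genes and downward by 0.301%. Of the 9 genes, 7 were expressed, 2 of them (Cyp26a1 and Cyp26b1) passed upward and 0 passed downward. In the range of Cyp26b1, from 1 to under 10 TPM, 1.47% of all genes passed upward and 0.334% downward, and at 10 TPM or more, where Cyp26a1 lies, 0.994% and 0.273%. At 2-fold or more, 1 of the 7 passed (Cyp26a1), beside 0.387% of expressed genes, and at 0.5-fold or less 0 passed, beside 0.112%. On the scale of the authors' means, 2.56% of expressed genes passed 1.4-fold upward, and 2 of the 7 did. The median log2 change of the 7 genes was 0.19, beside -0.01 for all 11623 genes. Above 0 lay 6 of the 7, beside 5319 of the 11623. Since the genes were chosen with these values known, nothing is read from the counts.

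The 3 genes of retinoid storage and of the retinol and retinal step that also lay above 0 did so by much less. Rdh10 (chromosome 1, 16105882 to 16132550), whose product starts the synthesis of retinoic acid, was at 19.26 TPM in KO against 15.99 TPM in WT. Its log2 change was 0.25, with a counting interval of 0.12 to 0.45 on 576 and 640 estimated reads. Dhrs3 (chromosome 4, 144892534 to 144928209), whose product opposes that step and which retinoic acid is known to induce in many tissues, was at 140.75 TPM in KO against 123.46 TPM in WT. The log2 change of Dhrs3 was 0.19 (interval 0.12 to 0.27). Lrat (chromosome 3, 82892582 to 82903974) was at 12.81 TPM in KO beside 11.25 TPM in WT, and its log2 change was 0.17 (interval 0.07 to 0.33). All 3 changes lay within the range of expressed genes from the 5th to the 95th percentile (-0.27 and 0.27), at the percentiles 94.2 for Rdh10, 90.3 for Dhrs3 and 88.8 for Lrat. For genes of at least 10 TPM, the group to which these 3 belong, the 95th percentile was 0.20, which Rdh10 exceeded and the other two did not.

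Rdh11 and Rbp4 were nearly level. Rdh11 (chromosome 12, 79174233 to 79191855), a reductase of retinal, was at 97.83 TPM in KO against 98.11 TPM in WT, and its counting interval of -0.07 to 0.10 holds 0. Rbp4 (chromosome 19, 38116620 to 38125321), which hepatocytes secrete to carry retinol to other tissues, was by far the most abundant of the genes, at 2203.49 TPM in KO against 2176.38 TPM in WT. Its log2 change was 0.02. On 23866 and 31415 estimated reads the interval of the ratio of means ran from 0.01 to 0.06.

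**Figure D2:**
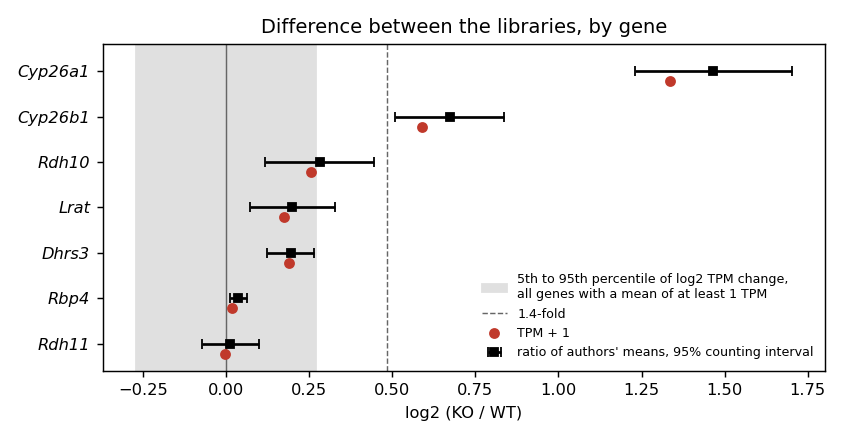
Difference between the libraries for the 7 genes with estimated reads, as log2 (KO / WT). Black squares are the ratio of the authors' means with its 95% counting interval, red points the change of TPM + 1, the grey band the 5th to the 95th percentile of TPM changes of the expressed genes (-0.27 to 0.27), and the dashed line 1.4-fold. The intervals of Cyp26a1 (1.23 to 1.70) and Cyp26b1 (0.51 to 0.84) lie beyond the dashed line and apart from each other.

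The cytoplasmic retinoic acid binding proteins were at the lower limit of the data. Crabp1 (chromosome 9, 54764748 to 54773110) was listed at 0.25 TPM in KO beside 0.19 TPM in WT, and Crabp2 (chromosome 3, 87948693 to 87953372) at 0.10 TPM and 0.07 TPM. Neither is among the 16318 genes of the second deposited table, so that no read number can be given. The TPM values are posterior means and stay above 0 without reads: of 711 genes with an authors' mean of 0 in KO, 705 had a TPM above 0 there. Among 4025 genes found in the TPM table alone with at least 0.05 TPM in WT and a KO value above 0, the median ratio of KO to WT TPM was 1.29, against a value of 1 read that was 1.35 times as high in the shallower KO library. The TPM ratios of 1.32 for Crabp1 and 1.43 for Crabp2 are of this size and are not read as a difference in expression.

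By level, the order of the genes in WT was Rbp4, Dhrs3, Rdh11, Rdh10, Lrat, Cyp26a1, Cyp26b1, Crabp1 and Crabp2. In KO, Cyp26a1 stood in place 4 and not 6, above Rdh10 and Lrat. Its counting interval there (18.3 to 22.1 TPM) overlapped that of Rdh10 (17.7 to 20.9 TPM) and not that of Lrat (12.0 to 13.7 TPM), so the order of Cyp26a1 and Rdh10 in KO is not resolved by the reads. The other genes kept their order relative to each other.

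**Figure D3:**
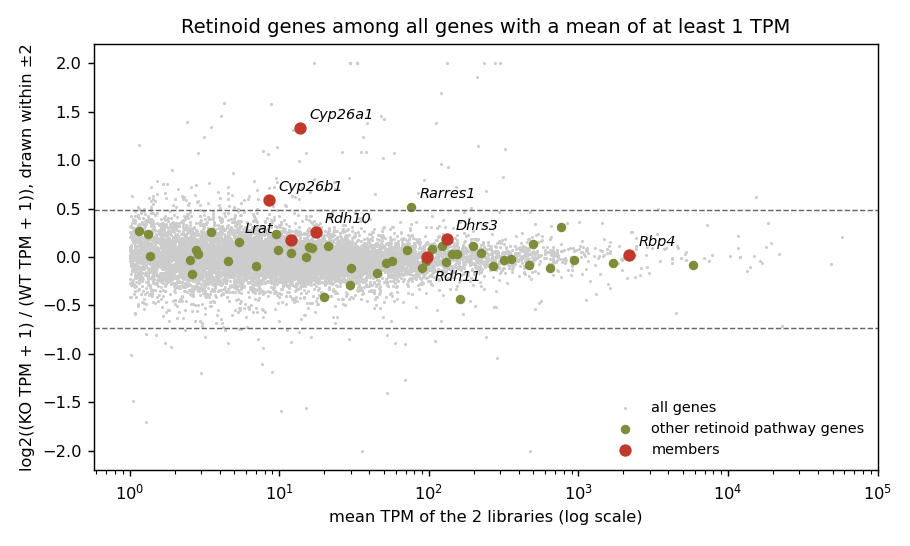
Mean TPM of both libraries (log scale) against the log2 change for all expressed genes (grey; values beyond ±2 are drawn at ±2), other genes of the retinoid pathway (olive) and the 7 expressed genes of the 9 (red). Dashed lines mark 1.4-fold and 0.6-fold. Cyp26a1 (1.33) and Cyp26b1 (0.59) lie above the upper line, with Rarres1 (0.52), while the rest of the pathway lies between the lines.

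The wider pathway was described from lists by role, 63 genes that are not among the 9. Of these, 61 were found in the table (Stra6l and Bco1 under older symbols, Rdh16f2 and Rbp5 not matched) and 46 were expressed. Upward, 1 of the 46 passed the fold rule, and downward 0, beside 1.21% and 0.301% of all expressed genes. The median log2 change of the 46 was 0.01, and 24 lay above 0, beside 5319 of all 11623 expressed genes.

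Enzymes that make retinoic acid did not pass the rule. Aldh1a1, the main retinal dehydrogenase of liver, was the highest of 4 genes of retinal oxidation and the most abundant. It was at 851.85 TPM in KO against 689.11 TPM in WT (log2 change 0.31, interval 0.29 to 0.35). That change stood at the percentile 96.3, above the 95th percentile of expressed genes (0.27). Aox3 was the lowest at -0.09. Among 11 genes of retinol oxidation the changes ran from -0.29 for Rdh9 (percentile 4.4) to 0.26 for Rdh1 (percentile 94.4). The most abundant of them, Adh1, an alcohol dehydrogenase, was at -0.07. The 3 further genes of retinal reduction spanned -0.04 for Dhrs4, the most abundant, to 0.15 for Rdh13.

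Genes of ester metabolism, uptake and transport were likewise between the thresholds. Of these, Lpl and Fabp5 lay below the 5th percentile of expressed genes, at the percentiles 1.7 and 1.5. Among 11 genes of esterification and hydrolysis, Lpl, a lipase of the vessel wall, was lowest (-0.41, with 16.91 TPM in KO beside 22.84 TPM in WT), Awat2 highest (0.27) and Ces1d, a carboxylesterase, the most abundant (0.13). Fabp5, a fatty acid binding protein that also binds retinoic acid, was the lowest of 4 transport genes, at 136.82 TPM in KO against 185.46 TPM in WT (-0.44). Stra6l, a membrane receptor for retinol bound to Rbp4, was the highest at 0.07. Ttr (transthyretin), the plasma partner of Rbp4, was the most abundant and was at -0.09. Of 4 genes of carotenoid cleavage and retinol saturation, Scarb1 was lowest (-0.11), and Retsat was highest (0.11) and most abundant.

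All 6 receptor genes were expressed. Of all expressed genes, 1.21% passed the rule upward and 0.301% downward, and of these 6 none did. They ran from -0.18 for Rarg to 0.10 for Rxrb, and Rxra, the most abundant, was at 144.64 TPM in KO beside 141.06 TPM in WT (0.04).

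Among other genes that retinoic acid is known to induce, 5 were expressed and 1 passed the rule upward, beside 1.21% of all expressed genes. Rarres1, a retinoic acid receptor responder first found as a gene induced by a synthetic retinoid, was at 89.54 TPM in KO against 62.19 TPM in WT. Its log2 change of 0.52 corresponds to 1.43-fold, just past the threshold, with a counting interval of 0.44 to 0.65. Rarb, whose element is printed above beside that of Cyp26a1, was at 2.49 TPM in KO against 2.56 TPM in WT. The interval of Rarb, -0.45 to 0.34 on 94 and 132 estimated reads, holds 0 and lies below that of Cyp26a1. Tgm2 (a transglutaminase, -0.04) and the abundant Rarres2 (chemerin, -0.11) were close to level, while Hoxb1, Stra6 and Stra8 were under 1 TPM.

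**Figure D4:**
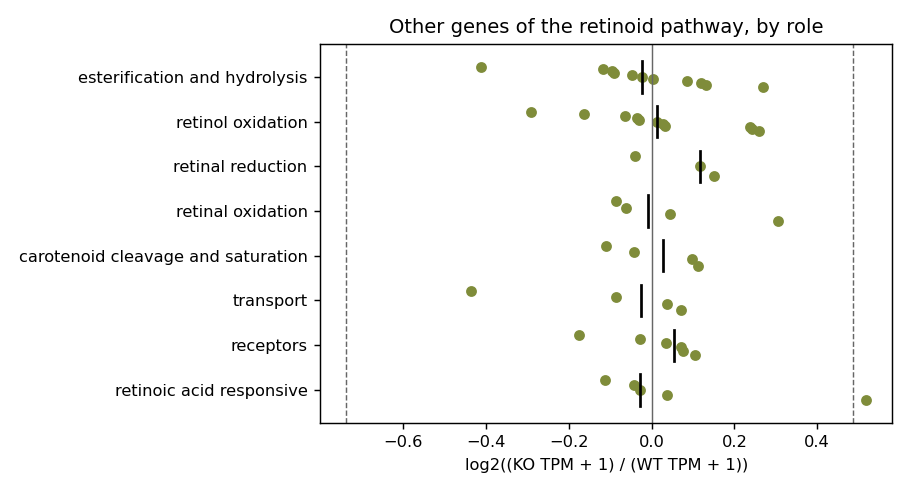
Log2 changes of the other expressed retinoid genes, by role; each point is a gene, black bars are medians, dashed lines mark 0.6-fold and 1.4-fold, and a gene listed under 2 roles is drawn in both. Only Rarres1 (0.52) lies beyond a dashed line, and the medians lie between -0.03 and 0.12.

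Levels around Cyp26a1 on chromosome 19 were examined because Cyp26c1 and Rbp4 lie on the same chromosome. RefSeq lists 31 genes whose span starts within 500 kb of that of Cyp26a1, itself included, and 13 others were in the table. Of all expressed genes, 1.21% passed the fold rule upward and 0.301% downward, and of the 9 expressed others 0 did. They ran from -0.24 for Kif11, a mitotic kinesin, to 0.14 for 4931408D14Rik, and included Hhex, a transcription factor of liver development, at -0.18 (35.90 TPM in KO beside 40.85 TPM in WT) and Exoc6, the next expressed gene upstream, at -0.12.

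**Figure D5:**
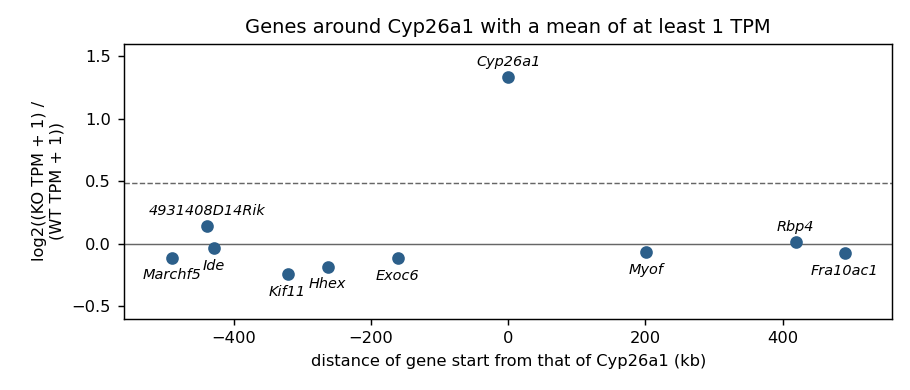
Log2 change of expressed genes against the distance of the start of their RefSeq span from that of Cyp26a1, in kb. Cyp26a1 is at 1.33, above the dashed line at 1.4-fold, and the 9 others lie between -0.24 and 0.14.

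Markers of liver cell types were set beside these results, since fewer cells of a type and less RNA per cell cannot be told apart in bulk RNA. Cyp26a1 is known to be expressed in pericentral hepatocytes. All 8 pericentral markers lay above 0, from 0.07 for Axin2 to 0.78 for Tbx3, and their summed level was 1249.64 TPM in KO against 1131.6 TPM in WT. Tbx3, a transcription factor downstream of Wnt signalling, was at 12.52 TPM in KO against 6.90 TPM in WT, and it passed the rule together with Rhbg, an ammonium transporter (0.49, from 5.76 to 8.52 TPM). The other 6, among them Glul (glutamine synthetase, 0.16) and Lgr5 (0.38), did not. Of all expressed genes, 1.21% passed upward. Lgr5 was at 3.53 TPM in KO against 2.47 TPM in WT. Its ratio of the authors' means was 1.44, past 1.4-fold on that scale. All 8 periportal markers lay below 0, from -0.51 for Sds to -0.13 for Cps1, with sums of 5706.32 TPM and 6587.98 TPM. Of all 11623 expressed genes, 5319 lay above 0 and 6257 below. The log2 ratio of the pericentral sum was 0.14. Most of that sum came from Glul and Oat (566.28 and 446.39 TPM in KO), so it says little about the less abundant markers. The part of zonation in the Cyp26a1 result was not tested.

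Lrat is itself a stellate cell marker. Of the 13 other expressed stellate markers, 4 lay above 0, Rgs5 was lowest (-0.53), and the list without Lrat summed to 294.65 TPM in KO beside 329 TPM in WT. Lrat, at 0.17, was the highest of the whole list. Sinusoidal endothelial markers ran from -0.60 for Lyve1 to 0.06 for Dnase1l3 (198.65 and 216.21 TPM in sum), Kupffer cell markers from 0.10 for Vsig4 to 0.24 for C1qa (261.97 and 229.49 TPM), and cholangiocyte markers from -0.59 for Epcam to 0.01 for Krt19 (61.96 and 66.85 TPM). The 6 hepatocyte markers, which include Ttr and Cps1 named above, ran from -0.32 for Tdo2 to -0.004 for Apoa1 and summed to 69742.7 TPM and 73463.3 TPM. All 4 lymphocyte markers had a mean under 1 TPM. The part of cell composition in the differences of Cyp26b1, Lrat and Rdh10 was not tested.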

How the data were processed

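Liver RNA of Pgrmc1 KO and WT mice was pooled by genotype and sequenced as 1 stranded total RNA library each. Per the labels and the methods, the authors ran CASAVA 1.8.2 and RSEM 1.2.09 with Bowtie on mm10. The values they deposited are posterior means in TPM, scaled between libraries, and add up to 1005325 for KO and 994702 for WT. The second deposited table gives, from EBSeq, a signal per library, the expected reads after depth scaling, here called the authors' mean. Its fold changes and probabilities of equal or differential expression were not used, and the version of EBSeq is not given in the sources used here. The most frequent value of each signal column (1.16 in KO, 0.860 in WT) was taken as 1 read.

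The fold was (KO TPM + 1)/(WT TPM + 1); for low genes this makes a change look smaller than it is. Genes were called up at 1.4 or above and down at 0.6 or below. No p-value was computed, since a genotype has 1 library. Intervals are Clopper-Pearson for ratios and exact Poisson for levels, at 95%, from estimated reads rounded to whole numbers. Reads carry no molecular identifiers, so the intervals cover counting error only.

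The 9 genes, the role lists and the marker lists, written from general knowledge, were chosen with earlier results of these data known. Named genes were Pgrmc1, the 9 genes, Cyp26c1, in each role list those past the fold rule and the highest, lowest and most abundant of the rest, and in each marker list the highest and lowest. Alb, Glul, Lgr5, Oat, Rhbg, Hhex, Exoc6, Tgm2, Rarb, Bco1, Blvrb, Ppbp and the genes listed as unexpressed fall outside this rule and were picked with their values in view. Some listed genes enter the counts and are not reported here by name. Promoters and coordinates are from RefSeq on GRCm38.p6, the assembly of mm10, and transcripts from GENCODE. The calls and intervals were tested on simulated data. Computation used Python 3.11.15 with scipy 1.17.1, pandas 2.3.3 and numpy 2.4.6, and plotting matplotlib 3.10.9.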

Additional observations from a re-analysis of the deposited data

How the results depend on the processing

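No paired analysis was possible because KO and WT are single pools, with fewer than 2 libraries to pair. Alternatives were a pseudocount of 0.1 TPM, the authors' means, subtracting the median change of genes at 10 TPM or more (centring), a TPM total without the 50 highest genes (rescaling), other fold thresholds and other filters on low values. Of 34 alternative values of the 9 genes, 28 stayed within counting error of the reported value. The other 6 were all of Crabp1 and Crabp2, which have no read numbers: 0.27 and 0.23 with 0.1 TPM, 0.0934 and 0.0624 after centring, and 0.118 and 0.0725 after rescaling. The median of all genes moved by less than 0.1 under each scaling. With thresholds of 2 and 0.5, 1 of the 9 genes passed upward (Cyp26a1) and 0 of the other retinoid genes, beside 0.387% of expressed genes. With a minimum mean of 10 TPM, 1 of the 9 passed 1.4-fold upward, beside 0.994% of all genes at that level. Cyp26b1 is below that minimum. With the authors' means, 2 other retinoid genes passed upward, Awat2 beside Rarres1, and 2.56% of expressed genes did. The log2 ratio of the Cyp26 sum was 0.95 with the authors' means and 1.13 with TPM, as the means are not per length and weight the longer Cyp26b1 transcript more. Depth limits Crabp1, Crabp2 and Cyp26c1. The single pool per genotype limits every value.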

Other observations

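The promoter element of Cyp26a1 and Rarb was found in the promoters of 31 genes, these 2 included, of which 11 were in the TPM table and 4 were expressed (mean of 1 TPM or more). Of these 4, Cyp26a1 passed the fold rule upward and 0 passed downward, beside 1.21% and 0.301% of all expressed genes. Cyp26a1 was chosen with its value known, so its pass was fixed in advance and nothing is read from the count. The others, Blvrb, Rarb and Ppbp, did not pass. Blvrb, a biliverdin reductase, was at 148.3 TPM in KO against 143.34 TPM in WT (log2 change 0.05, counting interval -0.03 to 0.17), and Rarb was nearly level. Ppbp, a platelet chemokine, was at 1.25 TPM and 0.82 TPM on 15 and 13 estimated reads (log2 change 0.31), with a counting interval of -0.53 to 1.83 that holds 0.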
